A study of Mus musculus with 18 samples.

Results

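The lysosomal genes described here are 51 of the 24369 genes in the deposited table of transcript levels, and all 51 were found there by symbol. They fall into 3 groups. The first holds 16 genes of the vacuolar ATPase (V-ATPase), whose symbols start with Atp6: 6 of the membrane sector V0, 8 of the cytosolic sector V1 and 2 accessory proteins. The second holds 26 hydrolases, of which 8 are proteases and 18 cleave sugars, sulfates or lipids. The third holds 9 membrane and accessory proteins. Their mRNA was measured by RNA-seq in 18 libraries of mouse embryonic stem cells (mESCs) of the line E14, all with the genotype Rex1GFPd2-Cas9, that is with a destabilised GFP in the Rex1 (Zfp42) gene and Cas9 in the Rosa26 locus. A differentiation time course had 3 libraries each at day 0, day 1, day 2 and day 3. A second experiment had 2 libraries each of sorted GFP+ cells that were wild-type, Nprl2-/- (Nprl2 KO) or Tsc2-/- (Tsc2 KO), with no time or treatment on their labels. The study made its KOs by deleting a critical exon with a pair of gRNAs and picking clones, and it kept its cells in serum and LIF on mitomycin-C-treated fibroblast feeders. For some experiments it used a medium with LIF and inhibitors of MEK and Gsk3 on gelatin. Its differentiation assays used sorted GFP+ cells on gelatin in a serum-free medium. The culture of the time course cells before day 0 is not given in the sources used here. A change of medium at the start thus cannot be told apart from time in differentiation. The labels do not say how many clones stand behind the 2 libraries of a genotype or whether libraries came from separate cultures, so p-values measure the spread between these libraries, which may be technical.

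Libraries held 8610357 to 13780861 estimated counts in the GFP+ experiment and 12503005 to 15305054 in the time course. Nprl2 stood at 8.09 and 8.65 TPM, a transcript level scaled for length and depth, in the Nprl2 KO libraries against 16.1 and 17.0 in wild-type, and Tsc2 at 18.8 and 20.3 in the Tsc2 KO libraries against 45.0 and 44.9. Transcript levels do not separate the deleted exon. Zfp42, the gene of the reporter, fell over the time course from 726.4, 795.2 and 803.8 TPM at day 0 to 12.6, 14.4 and 11.3 TPM at day 3. The 11 feeder fibroblast markers summed to 202.0 and 152.2 TPM in the wild-type libraries, 156.3 and 160.2 in those of Nprl2 KO, 186.2 and 50.7 in those of Tsc2 KO, and 10.8 to 44.1 in the time course. Of the 8 that were tested in the GFP+ experiment, 0 passed the edgeR test in any of its comparisons (0 also unadjusted or with DESeq2 or limma), and none was at 0 in every library. Of the 9 tested in the time course, 4 were higher and 4 lower at day 3 against day 0, where 70.9% of all genes were called. Thy1 rose from 4.51, 5.57 and 3.06 to 33.3, 30.2 and 26.8 TPM, and Col1a1 fell from 6.59, 3.02 and 2.98 to 1.25, 1.03 and 1.24. The time course sum thus mixes markers that moved in both directions. The 9 primitive endoderm markers summed to at most 13.2 TPM in any library. In bulk libraries, fewer cells of a type and less RNA per cell cannot be told apart.

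Lysosomes degrade material delivered by endocytosis and autophagy. The V-ATPase pumps protons into them at the cost of ATP: V1 hydrolyses ATP, and V0 carries the protons through the membrane. The acid pH serves hydrolases such as the cathepsins, most of which reach the lysosome by a mannose 6-phosphate tag, and heavily glycosylated proteins such as Lamp1 and Lamp2 line the membrane. The kinase complex mTORC1 is switched on at the lysosomal surface. Nprl2 is a subunit of GATOR1, which restrains mTORC1 through the Rag GTPases when amino acids are scarce, and Tsc2 restrains it through Rheb. Tfeb, Tfe3 and Mitf are related transcription factors that bind the letters CACGTG in many lysosomal gene promoters, within a longer element centred on TCACGTGA, and mTORC1 holds them in the cytoplasm.

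RefSeq promoters of build GRCm38.p6, from 250 bases before to 50 bases after each gene start, were matched for 41 of the 51 genes (45 promoters). No entry was matched for Atp6v0a2, Atp6v1b2, Atp6v1c1, Atp6v1g1, Atp6v1h, Ctsb, Ctsh, Galns, Asah1 and Npc1. CACGTG, which reads the same on both strands, lay in the promoters of 15 of the 41 genes (36.6%), against 8.09% of all 27025 genes in the table. By group it lay in 4 of 11 V-ATPase genes, 9 of 22 hydrolases and 2 of 8 membrane and accessory proteins. TCACGTGA, which contains it, lay in 7 of the 41 (17.1%, against 1.12% of all genes), namely Atp6v0d1, Atp6v0e, Atp6v1a, Ctsa, Ctsd, Gla and Mcoln1. Shown here are the promoter with the most copies, that of Lamp1 with 4, and 4 promoters with TCACGTGA, 1 from each of Mcoln1, Ctsa, Ctsd and Atp6v0d1. Capitals mark CACGTG, extended to TCACGTGA where the flanking letters allow.

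Lamp1, chr8:13158911-13159210, plus strand: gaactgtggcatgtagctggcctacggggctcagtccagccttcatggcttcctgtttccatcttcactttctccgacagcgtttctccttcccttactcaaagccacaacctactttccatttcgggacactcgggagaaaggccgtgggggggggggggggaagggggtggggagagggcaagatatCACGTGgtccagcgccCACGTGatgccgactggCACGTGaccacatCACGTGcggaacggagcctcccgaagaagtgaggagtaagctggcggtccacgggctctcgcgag

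Mcoln1, chr8:3500269-3500568, plus strand: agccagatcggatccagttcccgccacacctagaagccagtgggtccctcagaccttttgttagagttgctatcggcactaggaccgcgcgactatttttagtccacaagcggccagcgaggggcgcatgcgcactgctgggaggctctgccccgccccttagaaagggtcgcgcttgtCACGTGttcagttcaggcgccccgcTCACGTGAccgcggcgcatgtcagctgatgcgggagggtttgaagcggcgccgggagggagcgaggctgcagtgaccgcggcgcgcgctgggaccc

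Ctsa, chr2:164833523-164833822, plus strand: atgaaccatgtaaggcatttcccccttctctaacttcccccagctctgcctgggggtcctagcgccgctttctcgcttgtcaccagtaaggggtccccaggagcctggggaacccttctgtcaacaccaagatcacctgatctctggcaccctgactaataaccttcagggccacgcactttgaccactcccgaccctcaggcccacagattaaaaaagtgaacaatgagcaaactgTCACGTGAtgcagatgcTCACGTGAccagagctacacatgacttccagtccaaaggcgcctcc

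Ctsd, chr7:142387778-142388077, minus strand: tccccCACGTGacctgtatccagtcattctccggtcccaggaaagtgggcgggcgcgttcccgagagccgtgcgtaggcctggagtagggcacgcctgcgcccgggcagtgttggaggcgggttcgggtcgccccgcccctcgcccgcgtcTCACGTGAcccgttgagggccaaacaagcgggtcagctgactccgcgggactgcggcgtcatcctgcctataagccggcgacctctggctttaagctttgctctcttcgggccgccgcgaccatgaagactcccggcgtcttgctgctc

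Atp6v0d1, chr8:105566015-105566314, minus strand: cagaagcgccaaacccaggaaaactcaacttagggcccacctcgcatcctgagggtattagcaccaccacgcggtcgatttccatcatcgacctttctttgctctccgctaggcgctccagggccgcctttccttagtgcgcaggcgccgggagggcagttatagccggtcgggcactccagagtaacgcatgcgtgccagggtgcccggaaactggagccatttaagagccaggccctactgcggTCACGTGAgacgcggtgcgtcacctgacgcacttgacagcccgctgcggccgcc

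The 4 copies of Lamp1 began 61, 45, 28 and 15 bases before the gene start. That of Atp6v0d1 began 3 bases before it. A match of letters is a description and not a site of binding.

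In GFP+ wild-type cells the lysosomal genes spanned a wide range of TPM, a scale that accounts for transcript length. Lamp1 was the highest of all 51, with 324.6 and 364.5 TPM. Ctsd, the aspartic protease cathepsin D, was the highest hydrolase at 194.2 and 213.1 TPM, and Ctsh, an aminopeptidase, the lowest by mean at 0.669 and 0.868 TPM. Among the V-ATPase genes Atp6v1f, a subunit of the V1 stalk, was the highest at 186.2 and 196.9 TPM. The lowest was Atp6v0c, which encodes the proteolipid that forms the proton-carrying ring, at 11.8 and 11.7 TPM. Atp6v0c was listed at 0 in 4 of the 12 time course libraries and was at most 3.91 TPM in the others. The proteolipid is present in several copies per pump. Since near-identical copies of a gene can split reads between them, the values of Atp6v0c are uncertain.

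Summed over each group, the level in TPM was highest in Tsc2 KO and lowest in Nprl2 KO within the GFP+ experiment. The 26 hydrolases summed to 792.3 and 894.3 TPM in wild-type, 662.9 and 698.9 in the Nprl2 KO libraries, and 1285.7 and 1420.6 in the Tsc2 KO libraries. The 9 membrane and accessory proteins summed to 889.8 and 1014.9, 693.5 and 756.3, and 1396.6 and 1624.7 TPM in the same order. The 16 V-ATPase genes summed to 1377.4 and 1487.6, 1254.5 and 1288.1, and 1870.6 and 2000.7 TPM. In none of the 3 sums did 2 genotypes overlap. Markers of cell state moved with genotype as well. The 4 epiblast markers summed to 461.9 and 385.5 TPM in wild-type, 624.4 and 531.5 in the Nprl2 KO libraries and 114.8 and 109.6 in the Tsc2 KO libraries. Of the 6 markers of pluripotent cells, 4 were higher in Tsc2 KO and 3 were lower in Nprl2 KO by the edgeR test, and their part in the result was not tested. In the time course the hydrolases summed to 1107.0 to 1121.3 TPM at day 0, 612.8 to 631.5 at day 1, 667.1 to 795.0 at day 2 and 802.9 to 850.9 at day 3. The membrane and accessory proteins followed the same course, with 1069.7 to 1185.7, 605.4 to 621.0, 712.5 to 865.7 and 864.4 to 924.5 TPM. The V-ATPase sum moved less, from 1451.2 to 1475.3 TPM at day 0 to 1278.8 to 1303.5 at day 1 and 1496.0 to 1519.0 at day 3. Library 3 was the highest of day 2 in all 3 sums.

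**Figure D1:**
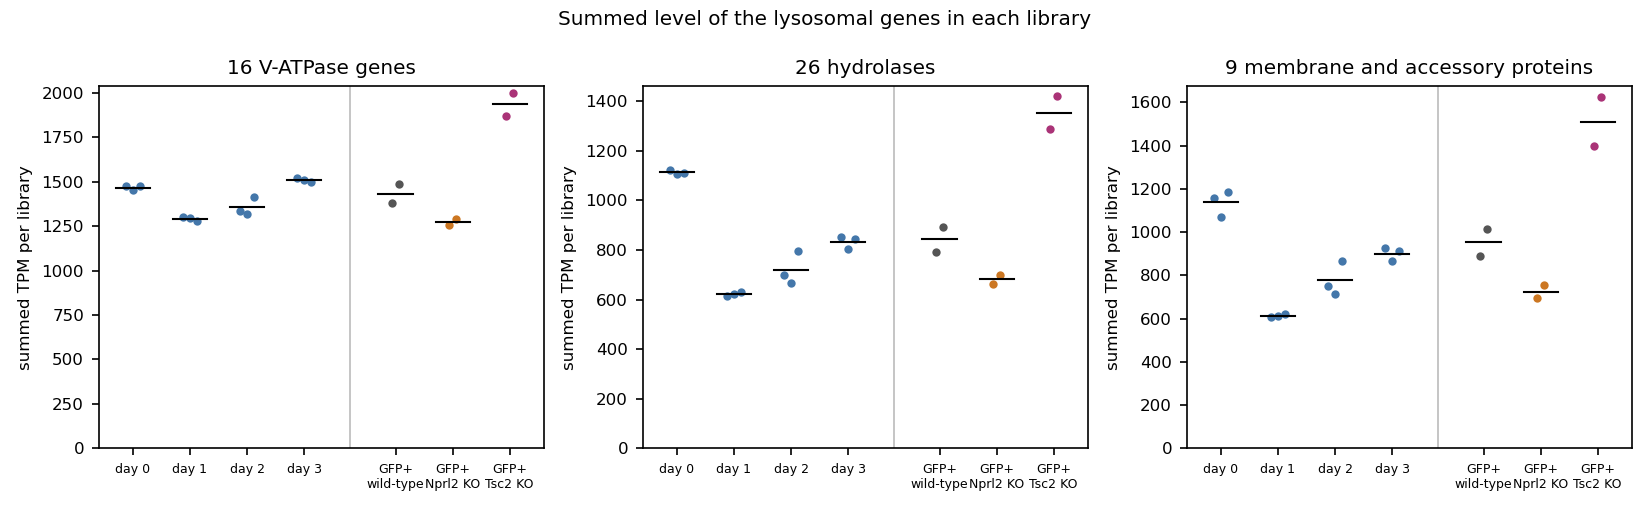
Summed TPM of the 16 V-ATPase genes, the 26 hydrolases and the 9 membrane and accessory proteins in each library; points are libraries, lines are group means, and the grey line parts the time course from the GFP+ experiment. The 2 Tsc2 KO libraries lay above the wild-type libraries in each panel, and day 1 was lowest for each group, with hydrolases at 612.8 to 631.5 TPM against 1107.0 to 1121.3 at day 0.

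Differences between groups of libraries were tested with edgeR's quasi-likelihood test on estimated counts, as log2 fold changes with Benjamini-Hochberg adjusted p-values over all genes tested and a threshold of 0.05. Of the 51 genes, 50 passed the filter on low counts in the GFP+ experiment (all but Ctsh) and 51 in the time course.

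In Tsc2 KO against wild-type, the question was how lysosomal genes stood in cells without this brake on mTORC1. Of the 50 genes tested, 32 were higher, 0 were lower and 18 did not pass the test; at an unadjusted p under 0.05, 2 were lower with edgeR, and DESeq2 and limma called 0 lower. Over all 13725 genes tested, 29.1% were called, with 14.9% higher and 14.2% lower. The median log2 fold change was 0.36 over the lysosomal genes and 0.00 over all genes. By group, 14 of 16 V-ATPase genes, 13 of 25 hydrolases and 5 of 9 membrane and accessory proteins were higher.

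The V-ATPase rise in Tsc2 KO took in all 8 V1 genes, 4 of 6 V0 genes and both accessory proteins, with a median log2 fold change of 0.35. The highest was Atp6ap2, the prorenin receptor, an accessory protein needed for assembly of the pump. It stood at 47.8 and 54.0 TPM in wild-type and 90.6 and 93.6 TPM in Tsc2 KO (log2 fold change 0.82 ± 0.11 SE, edgeR adjusted p = 1.4e-04). Atp6v0b, a proteolipid of the V0 ring, stood at 97.4 and 113.5 against 154.4 and 185.4 TPM (0.65 ± 0.11, edgeR adjusted p = 9.7e-04). Atp6v1a, the catalytic subunit of V1, stood at 76.8 and 89.0 against 115.6 and 132.9 TPM (0.55 ± 0.09, edgeR adjusted p = 0.00107). The libraries of the 2 genotypes did not overlap for any of these 3. Atp6v0e, a small V0 subunit, was at 116.6 and 122.5 against 125.2 and 131.9 TPM and did not pass the test (0.05 ± 0.10, edgeR adjusted p = 0.711), and neither did Atp6v0c (0.64 ± 0.32, edgeR adjusted p = 0.18). Atp6v1h, a regulatory subunit, was higher by 0.48 on the log2 scale, but the median of its chromosome 1 was 0.37 in this comparison, and its call was lost when chromosome medians were subtracted, as was that of Atp6v1f.

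Among the hydrolases, Ctsc, which activates other proteases by removing dipeptides, was the furthest up in Tsc2 KO, from 3.88 and 3.84 TPM in wild-type to 7.33 and 9.02 (log2 fold change 1.04 ± 0.20, edgeR adjusted p = 0.00232). Asah1, acid ceramidase, went from 68.4 and 88.2 to 153.0 and 161.5 TPM (0.97 ± 0.11, edgeR adjusted p = 2.6e-04). Hexa, which acts in the breakdown of GM2 ganglioside, went from 40.6 and 48.8 to 74.7 and 90.2 TPM (0.85 ± 0.12, edgeR adjusted p = 2.3e-04). All 3 had both Tsc2 KO libraries above both wild-type libraries. Gaa, which breaks down lysosomal glycogen, rose by a log2 fold change of 0.81 ± 0.09. Ctsd rose from 194.2 and 213.1 to 304.2 and 343.2 TPM (0.63 ± 0.07, edgeR adjusted p = 7.4e-05), and Ctsb, a cysteine protease, from 34.9 and 36.6 to 54.5 and 63.0 TPM (0.68 ± 0.13, edgeR adjusted p = 0.00588). The cysteine protease Ctsl had 104.3 and 153.7 TPM in wild-type and 243.8 and 285.4 in Tsc2 KO, without overlap, yet it did not pass the edgeR test (1.00 ± 0.29, edgeR adjusted p = 0.0808), while DESeq2 and limma both called it higher. The 12 hydrolases that were not called ranged from Naglu at -0.92 ± 0.46 to Ctsl.

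Of the membrane and accessory proteins, Cd63, a tetraspanin of late endosomes, rose from 132.5 and 179.7 TPM in wild-type to 307.4 and 351.1 in Tsc2 KO (log2 fold change 1.03 ± 0.17, edgeR adjusted p = 0.00449). Npc2, a soluble protein that hands cholesterol to Npc1, rose from 68.9 and 75.6 to 138.2 and 147.1 TPM (0.95 ± 0.08, edgeR adjusted p = 5.5e-06). Grn, the precursor of lysosomal granulins, rose from 80.2 and 93.6 to 145.0 and 190.0 TPM (0.91 ± 0.14, edgeR adjusted p = 0.00283). Psap, the precursor of the saposins that help glycosidases reach lipids, rose by 0.81 ± 0.08. The other genes of this group moved less. Lamp1 went from 324.6 and 364.5 to 397.6 and 464.7 TPM (0.29 ± 0.08, edgeR adjusted p = 0.0212). Lamp2, with 29.0 and 33.4 against 38.4 and 38.6 TPM, did not pass the test (0.20 ± 0.17), nor did the cholesterol exporter Npc1 with 16.8 and 17.2 against 18.4 and 22.1 TPM (0.22 ± 0.10). Mcoln1, the calcium channel mucolipin-1, overlapped between genotypes, with 25.0 and 29.8 against 26.6 and 34.1 TPM (0.12 ± 0.14). Scarb2, the receptor that carries beta-glucocerebrosidase, had 39.8 and 45.6 against 36.6 and 37.1 TPM (-0.25 ± 0.10, edgeR adjusted p = 0.09).

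Without wild-type library 1 the count of 32 higher genes fell to 16, with 1 (Scarb2) lower, and the V-ATPase count fell from 14 to 5, with V1 from 8 to 3. Without Tsc2 KO library 2 it fell to 18, with 7 V-ATPase genes, 4 of them in V1. DESeq2 called 26, of which 9 were V-ATPase genes and 6 of those V1 genes; it did not call Atp6ap1, Atp6v0a2, Atp6v0d1, Atp6v1c1, Atp6v1f, Ctsa and Idua. The feeder marker sum was 202.0 TPM in that wild-type library and 50.7 TPM in that Tsc2 KO library, and its part in the result was not tested.

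In Nprl2 KO against wild-type, 9 of the 50 lysosomal genes tested were called, 8 of them lower and 1 higher, against 6.43% of all genes (2.78% higher and 3.66% lower). The median log2 fold change was -0.21 over the lysosomal genes and 0.00 over all genes, and 41 of the 50 were below 0. The 8 lower genes were 2 of the V-ATPase, 4 hydrolases and 2 membrane and accessory proteins. The comparisons of Nprl2 KO and of Tsc2 KO share the 2 wild-type libraries, so the levels of all 3 genotypes are given side by side.

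Atp6ap2 stood at 31.0 and 38.1 TPM in Nprl2 KO, below the 47.8 and 54.0 TPM of wild-type (log2 fold change -0.52 ± 0.11, edgeR adjusted p = 0.0163). Atp6v0d1, the V0 subunit that joins the ring to the central stalk, stood at 65.3 and 68.1 against 85.6 and 100.2 TPM (-0.45 ± 0.10, edgeR adjusted p = 0.0165), and at 112.7 and 119.7 TPM in Tsc2 KO (0.29 ± 0.09 against wild-type, edgeR adjusted p = 0.0392). The other 14 V-ATPase genes did not pass the edgeR test in Nprl2 KO, with none of the 8 V1 genes above 0. Of these V1 genes, DESeq2 called Atp6v1b2 lower and limma Atp6v1g1.

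Manba, beta-mannosidase, fell the most of the hydrolases that passed in Nprl2 KO, with 25.5 and 20.8 TPM against 45.2 and 39.8 in wild-type (log2 fold change -0.84 ± 0.11, edgeR adjusted p = 0.00151). Its Tsc2 KO libraries held 74.0 and 66.4 TPM, a rise of 0.69 ± 0.11 over wild-type. Hexa stood at 26.2 and 26.2 TPM in the Nprl2 KO libraries against 40.6 and 48.8 (-0.74 ± 0.13, edgeR adjusted p = 0.00511). Tpp1, which removes tripeptides, stood at 25.0 and 26.5 against 35.6 and 42.0 TPM (-0.55 ± 0.10, edgeR adjusted p = 0.00833) and at 47.7 and 53.7 TPM in Tsc2 KO (0.35 ± 0.10). Ctsa, a carboxypeptidase that also protects some glycosidases, stood at 26.6 and 27.6 against 35.6 and 43.9 TPM (-0.50 ± 0.11, edgeR adjusted p = 0.0171) and at 49.7 and 54.0 TPM in Tsc2 KO (0.35 ± 0.10). For these 4 hydrolases the 3 genotypes did not overlap, with Nprl2 KO lowest and Tsc2 KO highest. Man2b1, the lysosomal alpha-mannosidase, differed in direction: it stood at 28.8 and 29.7 TPM without Nprl2 and at 27.5 and 33.6 without Tsc2, both above the 22.4 and 23.7 of wild-type (0.39 ± 0.10 and 0.37 ± 0.10, edgeR adjusted p = 0.0399 and 0.0149).

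Lamp1 stood at 240.7 and 244.2 TPM in Nprl2 KO, below the 324.6 and 364.5 TPM of wild-type (log2 fold change -0.47 ± 0.08, edgeR adjusted p = 0.00635). Psap stood at 132.3 and 144.7 against 173.0 and 175.5 TPM (-0.29 ± 0.08, edgeR adjusted p = 0.0469) and at 288.4 and 339.9 TPM in Tsc2 KO. Lamp2 (21.2 and 31.6 TPM) and Npc1 (16.4 and 18 TPM) overlapped with wild-type, while Mcoln1 (21.0 and 20.0 TPM) lay below it without passing the edgeR test (-0.38 ± 0.14, edgeR adjusted p = 0.139). Of the cathepsins, Ctsd had 186.2 and 189.8 TPM (-0.09 ± 0.08), Ctsb 27.6 and 37.2 TPM (-0.09 ± 0.13) and Ctsl 60.3 and 86.5 TPM (-0.77 ± 0.30, edgeR adjusted p = 0.263), and none of the 3 passed the edgeR test.

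The count of 9 fell to 3 without wild-type library 2, to 3 without Nprl2 KO library 1 and to 4 without Nprl2 KO library 2, and it rose to 21 with no filter on low counts. The calls of Atp6ap2, Atp6v0d1, Ctsa, Man2b1, Psap and Tpp1 were lost without wild-type library 2, and also without Nprl2 KO library 1. Both V-ATPase genes called are among them. Man2b1 did not pass with DESeq2 or limma, and Psap did not pass with limma or with chromosome medians subtracted. The feeder marker sum was 156.3 and 160.2 TPM in the Nprl2 KO libraries and 152.2 TPM in wild-type library 2, and its part in the result was not tested.

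**Figure D2:**
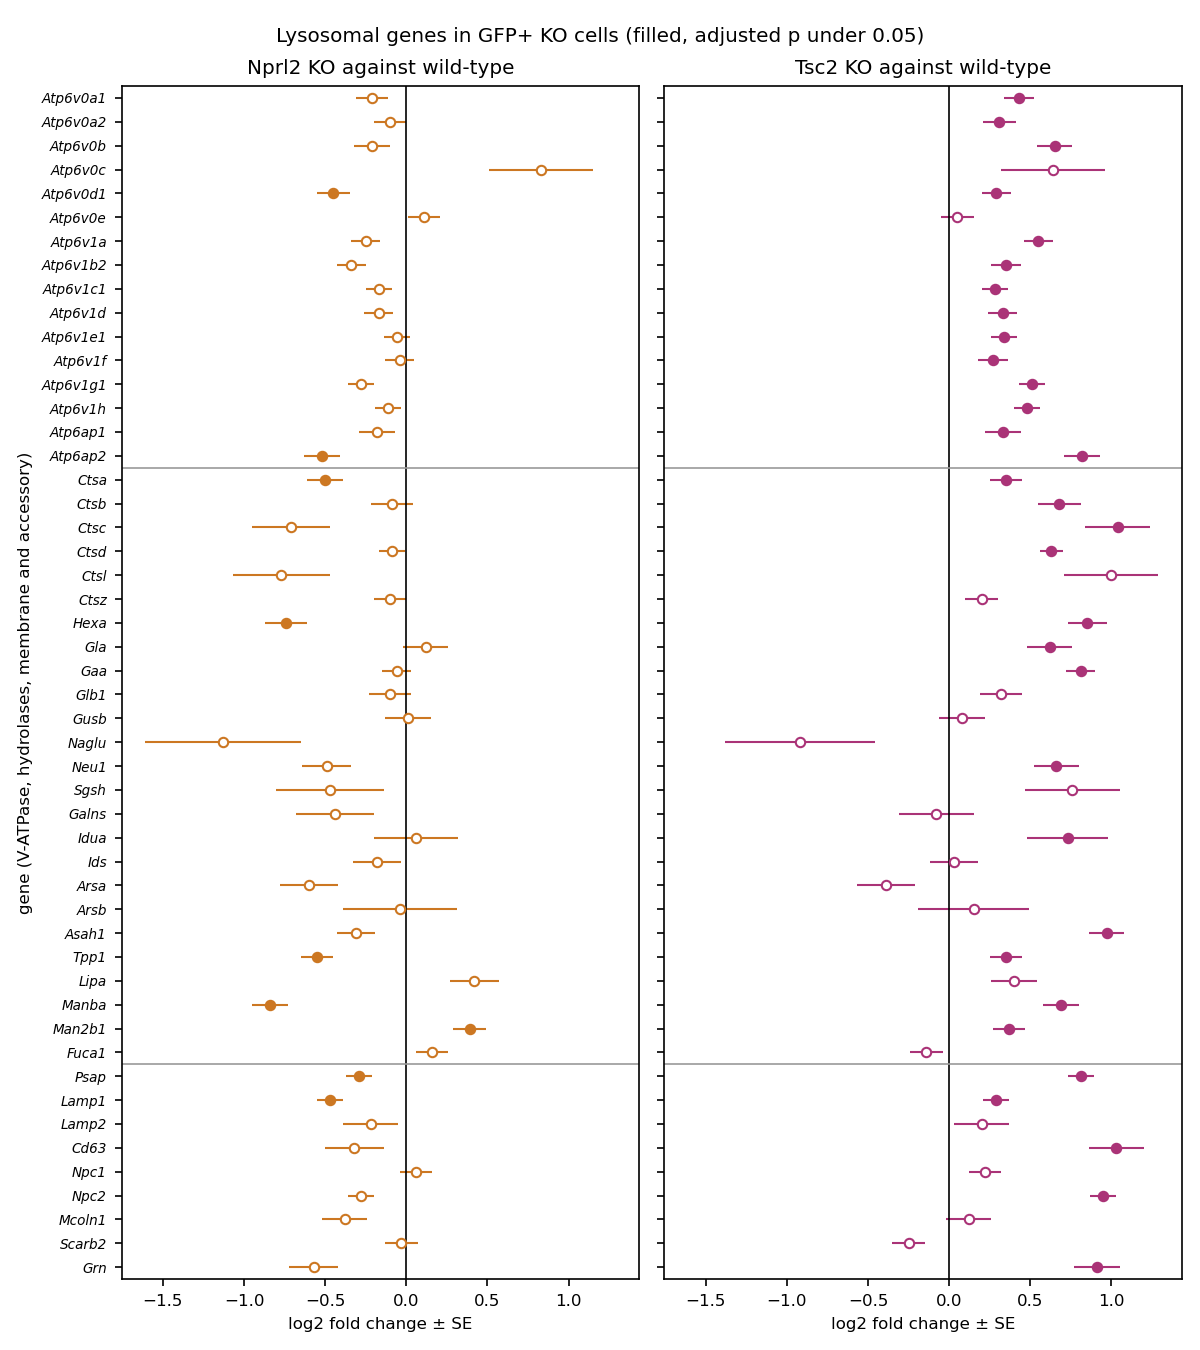
Log2 fold change of the 50 lysosomal genes tested in GFP+ Nprl2 KO and Tsc2 KO cells against GFP+ wild-type cells, with bars of 1 SE and filled points for an edgeR adjusted p under 0.05; grey lines part V-ATPase genes, hydrolases, and membrane and accessory proteins. In Nprl2 KO 8 filled points lie left of 0 and 1 (Man2b1) right of it, and in Tsc2 KO all 32 filled points lie right of 0.

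The direct comparison of Tsc2 KO with Nprl2 KO, which uses no wild-type library in its difference, had 36 lysosomal genes higher and 1 lower of 50, against 34.2% of all genes called (17.5% higher and 16.6% lower). The median log2 fold change was 0.62, and it was 0.55 over the V-ATPase genes, 0.67 over the hydrolases and 0.76 over the membrane and accessory proteins. All 7 proteases tested were higher in Tsc2 KO. Ctsl differed most, at 243.8 and 285.4 TPM in Tsc2 KO against 60.3 and 86.5 in Nprl2 KO (log2 fold change 1.78 ± 0.30, edgeR adjusted p = 0.0183), followed by Ctsc at 7.33 and 9.02 against 2.42 and 2.21 TPM (1.75 ± 0.21, edgeR adjusted p = 6.4e-05). Hexa differed by 1.59 ± 0.12, Atp6ap2 by 1.34 ± 0.11, Atp6v0b by 0.85 ± 0.11, Grn by 1.48 ± 0.14, Cd63 by 1.36 ± 0.17 and Npc2 by 1.23 ± 0.08. The 1 gene that was lower was Fuca1, alpha-L-fucosidase, with 27.3 and 28.6 TPM in Tsc2 KO against 34.1 and 31.1 in Nprl2 KO (-0.29 ± 0.10, edgeR adjusted p = 0.0408), and neither DESeq2 nor limma called it.

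The time course asked how the lysosomal genes moved over days 0 to 3 of differentiation. Since the culture before day 0 is not given, a change of medium cannot be told apart from time here. At day 1 against day 0, 40 of the 51 genes were lower and 4 were higher, against 60.9% of all 14382 genes called (30.1% higher and 30.8% lower). The median log2 fold change was -0.50 over the 51 genes and 0.00 over all genes. The groups differed in size of change: the median was -0.88 over the hydrolases, of which 22 of 26 were lower, -0.87 over the membrane and accessory proteins, of which 9 of 9 were lower, and -0.23 over the V-ATPase genes, of which 9 of 16 were lower. The V1 genes had a median of -0.08, with 3 of 8 lower and 2 higher.

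Lamp2 had the greatest fall of the membrane proteins at day 1, from 54.5, 54.9 and 47.5 TPM to 16.3, 15.8 and 14.4 (log2 fold change -1.73 ± 0.09, edgeR adjusted p = 3.7e-12). Grn fell from 134.0, 128.0 and 139.9 TPM to 50.6, 53.4 and 52.5 (-1.29 ± 0.08, edgeR adjusted p = 1.6e-10), and Cd63 from 214.2, 198.5 and 250.3 TPM to 86.8, 86.2 and 89.0 (-1.25 ± 0.11, edgeR adjusted p = 1.4e-07). The day 0 and day 1 libraries of these 3 genes lay far apart. Lamp1 fell less, from 351.2, 323.6 and 364.0 TPM to 236.5, 234.3 and 242.3 (-0.47 ± 0.05, edgeR adjusted p = 4.1e-07), as did Mcoln1, from 29.9, 25.2 and 27.9 TPM to 20.9, 21.4 and 21.8 (-0.30 ± 0.09, edgeR adjusted p = 0.00726).

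Hexa fell from 92.8, 91.8 and 91.3 TPM at day 0 to 25.4, 28.2 and 28.5 at day 1 (log2 fold change -1.68 ± 0.08, edgeR adjusted p = 2.3e-12). Gaa fell from 45.8, 40.9 and 42.8 TPM to 13.3, 13.9 and 14.9 (-1.54 ± 0.08, edgeR adjusted p = 3.7e-12). Naglu, which acts in heparan sulfate breakdown, fell from 1.56, 1.61 and 1.24 TPM to 0.746, 0.326 and 0.12 (-1.77 ± 0.42, edgeR adjusted p = 0.00129), at levels where few counts stand behind each value. Ctsl more than halved, from 135.9, 148.8 and 134.0 TPM to 60.0, 56.1 and 60.3 (-1.18 ± 0.08), and so did Ctsb, from 48.3, 48.0 and 47.0 TPM to 20.7, 20.6 and 21.1 (-1.13 ± 0.06). Ctsd, the most abundant hydrolase, fell only from 245.8, 227.2 and 235.4 TPM to 193.3, 201.1 and 187.8 (-0.21 ± 0.06, edgeR adjusted p = 0.00305). Gusb, beta-glucuronidase, was the 1 hydrolase called higher, though its libraries overlapped, with 13.4, 12.8 and 11.8 TPM at day 0 and 14.6, 15.1 and 12.9 at day 1 (0.24 ± 0.09, edgeR adjusted p = 0.0297).

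Among V-ATPase genes at day 1, Atp6ap2 fell from 73.8, 74.0 and 75.1 TPM to 36.3, 36.6 and 37.6 (log2 fold change -0.94 ± 0.06, edgeR adjusted p = 1.9e-10). Among the V-ATPase genes called, the next greatest falls were those of Atp6v0b (-0.36 ± 0.08) and Atp6v1g1, a subunit of the peripheral stalk (-0.36 ± 0.06). Atp6v1h rose from 66.8, 71.7 and 65.5 TPM to 79.6, 80.5 and 75.4 (0.28 ± 0.06, edgeR adjusted p = 0.00104), Atp6v1f by 0.26 ± 0.07 and Atp6v0e by 0.22 ± 0.08. The catalytic Atp6v1a fell from 104.0, 100.1 and 100.3 TPM to 82.5, 81.1 and 79.3 (-0.25 ± 0.06, edgeR adjusted p = 7.6e-04). Subunits of 1 complex thus moved in both directions, with 9 lower and 3 higher of 16. The share called was 75%, against 60.9% of all genes.

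**Figure D3:**
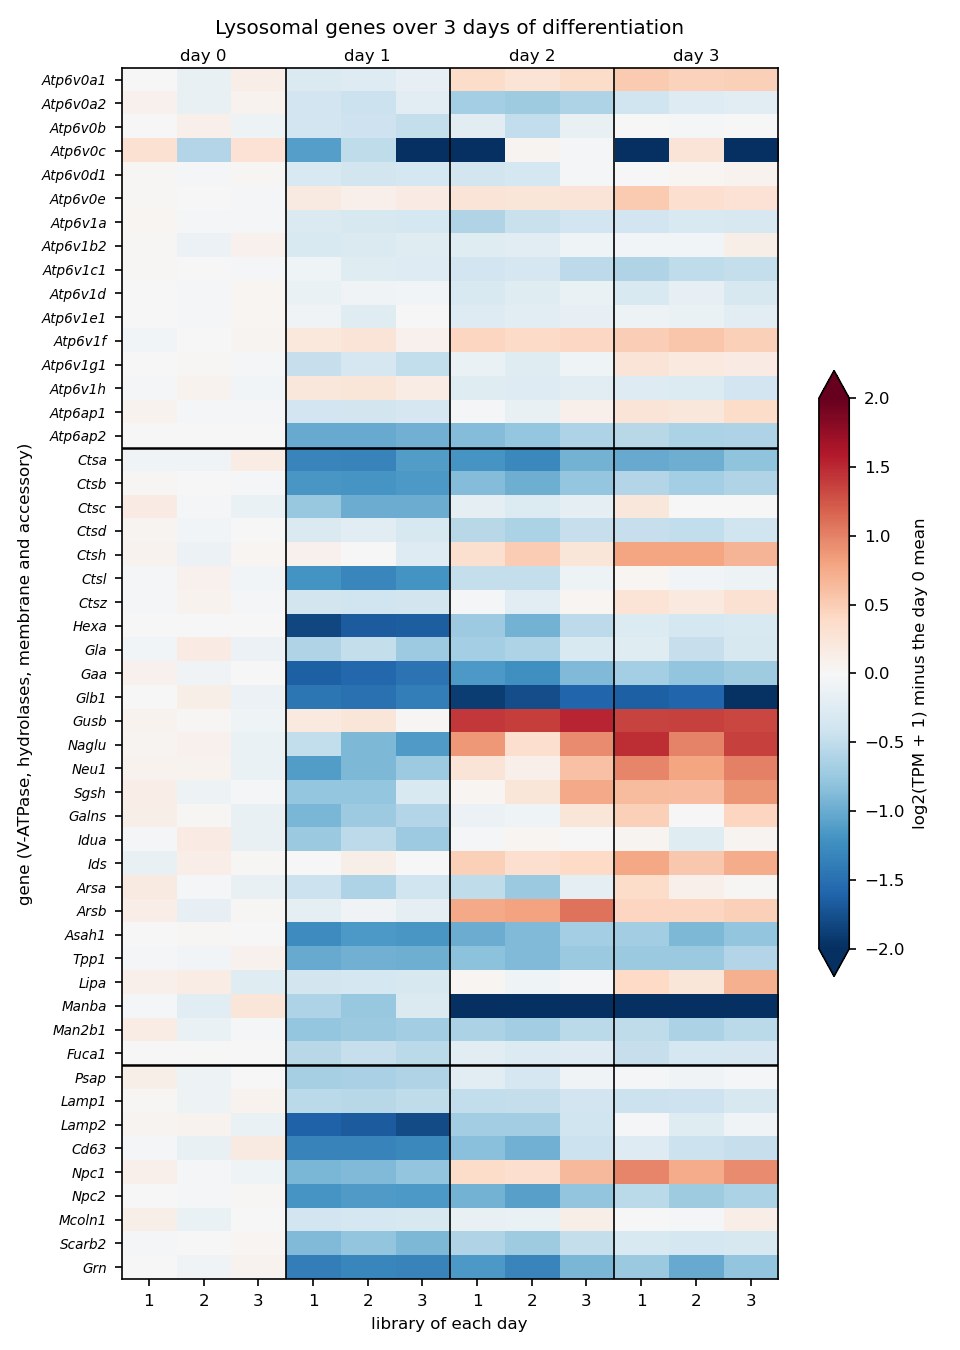
Level of each of the 51 lysosomal genes in the 12 time course libraries, as log2(TPM + 1) minus its mean at day 0 (blue lower, red higher, colours end at 2 on either side); black lines part the days and the groups of V-ATPase genes, hydrolases, and membrane and accessory proteins. Day 1 was the lowest day by mean TPM for 38 of 51 genes, a count not made over all genes. Manba stayed low from day 2, and the row of Atp6v0c holds libraries listed at 0.

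By mean TPM, day 1 was the lowest day for 38 of the 51 genes. These were 8 of 16 V-ATPase genes, 21 of 26 hydrolases and 9 of 9 membrane and accessory proteins. The lowest day was not counted over all genes, so whether this share is particular to lysosomal genes is not known. At day 2 against day 1, 22 were higher and 9 lower, against 62.1% of all genes called (32.5% higher and 29.6% lower). The share called, 60.8%, was thus near that of all genes. The higher genes were 15 hydrolases, 4 membrane and accessory proteins and 3 V-ATPase genes, and 5 of the 9 lower ones were V1 genes. This comparison shares the day 1 libraries with the one before.

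The largest rises at day 2 among the hydrolases called were those of Naglu, Arsb and Sgsh, each under 1 TPM in every day 1 library. Naglu reached 3.51, 2.12 and 3.72 TPM (log2 fold change 2.80 ± 0.38, edgeR adjusted p = 4.0e-06). Arsb, arylsulfatase B, went from 0.251, 0.359 and 0.253 TPM at day 1 to 1.42, 1.51 and 2.03 (2.36 ± 0.29, edgeR adjusted p = 1.3e-06), and Sgsh, a heparan sulfatase, from 0.324, 0.325 and 0.842 to 1.34, 1.70 and 2.83 TPM (1.86 ± 0.32, edgeR adjusted p = 6.9e-05). Neu1, a sialidase, rose by 1.30 ± 0.13, and Gusb rose to 35.4, 34.5 and 38.2 TPM (1.23 ± 0.08, edgeR adjusted p = 3.9e-10). Of the membrane proteins, Npc1 rose from 8.96, 9.21 and 9.85 TPM to 23.4, 22.7 and 28.6 (1.30 ± 0.09, edgeR adjusted p = 2.9e-10) and Lamp2 to 31.8, 31.8 and 39.5 TPM (1.14 ± 0.09, edgeR adjusted p = 2.9e-09). Cd63 rose by 0.46 ± 0.12.

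Manba was 1 of the 3 hydrolases called lower at day 2, where 15 were called higher. It held 62.0, 55.4 and 76.2 TPM at day 0 and 41.2, 37.6 and 51.9 at day 1, then 4.48, 5.31 and 5.34 at day 2 (log2 fold change -3.22 ± 0.15 against day 1, edgeR adjusted p = 2.4e-10) and 4.65, 5.21 and 4.73 at day 3. Glb1, beta-galactosidase, fell further as well (-0.44 ± 0.11, edgeR adjusted p = 0.00199), and Ctsd by 0.38 on the log2 scale. Of the V-ATPase genes, Atp6v1h fell from its day 1 level to 57.2, 56.5 and 58.4 TPM (-0.57 ± 0.07, edgeR adjusted p = 5.0e-07). Atp6v0a2, 1 of 2 alternative large V0 subunits in the set, fell from 12.4, 12 and 14.1 TPM to 9.89, 9.71 and 10.4 (-0.47 ± 0.09, edgeR adjusted p = 9.3e-05), while the other, Atp6v0a1, rose from 23.2, 23.5 and 25.2 TPM to 36.9, 34.7 and 37.1 (0.48 ± 0.07, edgeR adjusted p = 9.3e-06). Atp6v1c1 fell by 0.34, and Atp6ap1 and Atp6v1g1 rose by 0.22 ± 0.07 and 0.16 ± 0.06.

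At day 3 against day 2, 20 of the 51 genes were higher and 1 lower, against 31.5% of all genes called (15.9% higher and 15.6% lower). The median log2 fold change was 0.17 over the 51 genes. The rises were small: Arsa, arylsulfatase A, rose by 0.66 ± 0.14, Neu1, the lysosomal sialidase, by 0.60 ± 0.12, Lipa, acid lipase, by 0.50 ± 0.13, Lamp2 by 0.50 ± 0.08, Npc1 by 0.40 ± 0.08 and Atp6v0a2 by 0.37 ± 0.09. Atp6v1g1 rose by 0.32 ± 0.06 and Cd63 by 0.31 ± 0.11, the latter with overlapping libraries. The 1 gene that fell was Arsb, from 1.42, 1.51 and 2.03 TPM to 0.932, 0.936 and 0.99 (-0.84 ± 0.24, edgeR adjusted p = 0.0132). Without day 2 library 2 the count of 21 fell to 13. Day 2 library 3 had the highest summed levels of its day, and without it 25 genes were called.

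Over the 3 days together, day 3 against day 0, 24 genes were lower and 14 higher, against 70.9% of all genes called (35% higher and 35.9% lower). The share of the 51 genes called, 74.5%, was thus near that of all genes. The lower genes were 7 of the V-ATPase, 12 hydrolases and 5 membrane and accessory proteins. Manba fell the furthest, with a log2 fold change of -3.81 ± 0.15 (edgeR adjusted p = 8.6e-12). Glb1 went from 66.7, 72.0 and 60.8 TPM to 20.7, 21.5 and 16.2 (-1.86 ± 0.10, edgeR adjusted p = 9.7e-12), Ctsa from 54.4, 54.3 and 63.1 TPM to 28.0, 28.6 and 32.4 (-1.04 ± 0.09, edgeR adjusted p = 2.0e-09), and Grn to 79.3, 66.3 and 76.9 TPM (-0.94 ± 0.08, edgeR adjusted p = 5.4e-09). A noncoding transcript of Glb1 took up 25.7% to 73.4% of its TPM in single time course libraries, so its coding level is less certain.

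Naglu rose the most over the 3 days, with 5.83, 3.90 and 5.34 TPM at day 3 (log2 fold change 1.68 ± 0.28, edgeR adjusted p = 3.4e-05). Ctsh, at 0.501, 0.323 and 0.475 TPM on day 0 and 1.47, 1.47 and 1.30 on day 3, rose by 1.62 ± 0.40 (edgeR adjusted p = 0.0012), and Gusb rose by 1.33 ± 0.08 (edgeR adjusted p = 4.3e-11). Npc1 was the 1 membrane protein that ended higher, at 35.9, 30.6 and 35.2 TPM against 19.3, 17.5 and 16.8 (0.84 ± 0.08, edgeR adjusted p = 2.0e-08), while its partner Npc2 ended lower, at 84.2, 74.1 and 78.0 TPM against 123.3, 119.1 and 124.1 (-0.72 ± 0.07, edgeR adjusted p = 1.1e-08). Lamp2, at 50.5, 44.1 and 49.8 TPM, and Ctsl, at 143.9, 134.1 and 129.8 TPM, overlapped with their day 0 libraries and did not pass the test (-0.09 ± 0.08 and -0.12 ± 0.08). Lamp1 ended at 257.5, 260.5 and 275.4 TPM (-0.48 ± 0.05, edgeR adjusted p = 2.1e-07). Ctsb ended at 31.6, 29.5 and 31.3 TPM (-0.72 ± 0.06) and Ctsd at 170.7, 168.2 and 179.7 TPM (-0.54 ± 0.06), and Mcoln1 at 27.3, 26.8 and 30.5 TPM overlapped with day 0.

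Of the 16 V-ATPase genes, 4 were higher and 7 lower at day 3 against day 0. The share called, 68.8%, was near the 70.9% of all genes. Atp6v1f rose from 180.3, 186.2 and 194.6 TPM at day 0 to 264.1, 276.5 and 259.1 at day 3 (log2 fold change 0.43 ± 0.07, edgeR adjusted p = 2.1e-05), Atp6v0a1 by 0.42 ± 0.07 and Atp6v0e by 0.31 ± 0.07. Atp6v1c1, which helps V1 bind V0, fell from 78.7, 77.2 and 76.2 TPM to 50.7, 53.9 and 55.2 (-0.62 ± 0.07, edgeR adjusted p = 2.0e-07), Atp6ap2 by 0.70 on the log2 scale and Atp6v1a by 0.43. Of the 8 V1 genes, 5 ended lower and 1 higher, a share called of 75% that was also near that of all genes.

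The 3 transcription factors of lysosomal genes changed in level themselves. Tfeb stood at 52.2, 47.8 and 47.5 TPM at day 0 and 3.24, 3.64 and 3.15 at day 1 (log2 fold change -3.79 ± 0.11, edgeR adjusted p = 1.2e-15), and it was at 2.73, 2.82 and 2.52 TPM at day 3. Mitf stood at 14.1, 13.6 and 14.2 TPM at day 0 and 0.648, 0.296 and 1.04 at day 1 (-4.30 ± 0.21, edgeR adjusted p = 4.5e-12). Tfe3, the most abundant, moved the other way at day 1, from 99.9, 91.8 and 95.4 to 160.5, 167.5 and 163.7 TPM (0.84 ± 0.06, edgeR adjusted p = 2.3e-10), and was at 90.1, 95.3 and 94.1 TPM at day 3. In GFP+ cells Tfe3 was at 88.9 and 90.8 TPM in wild-type, at 109.0 and 99.3 TPM without Nprl2 and at 43.1 and 42.0 TPM without Tsc2 (-1.10 ± 0.08 in Tsc2 KO, edgeR adjusted p = 1.8e-06). Mitf rose in Tsc2 KO from 2.29 and 1.56 to 3.24 and 3.55 TPM (0.83 ± 0.21, edgeR adjusted p = 0.0125). These are low levels, and the call was lost in 4 of the alternative fits. Tfeb, at 6.21 and 5.09 against 7.22 and 9.37 TPM, did not pass the test in Tsc2 KO (0.52 ± 0.20). Whether the levels of these 3 factors bear on those of the lysosomal genes was not tested. They are mRNA levels and carry no information on where the proteins lay.

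**Figure D4:**
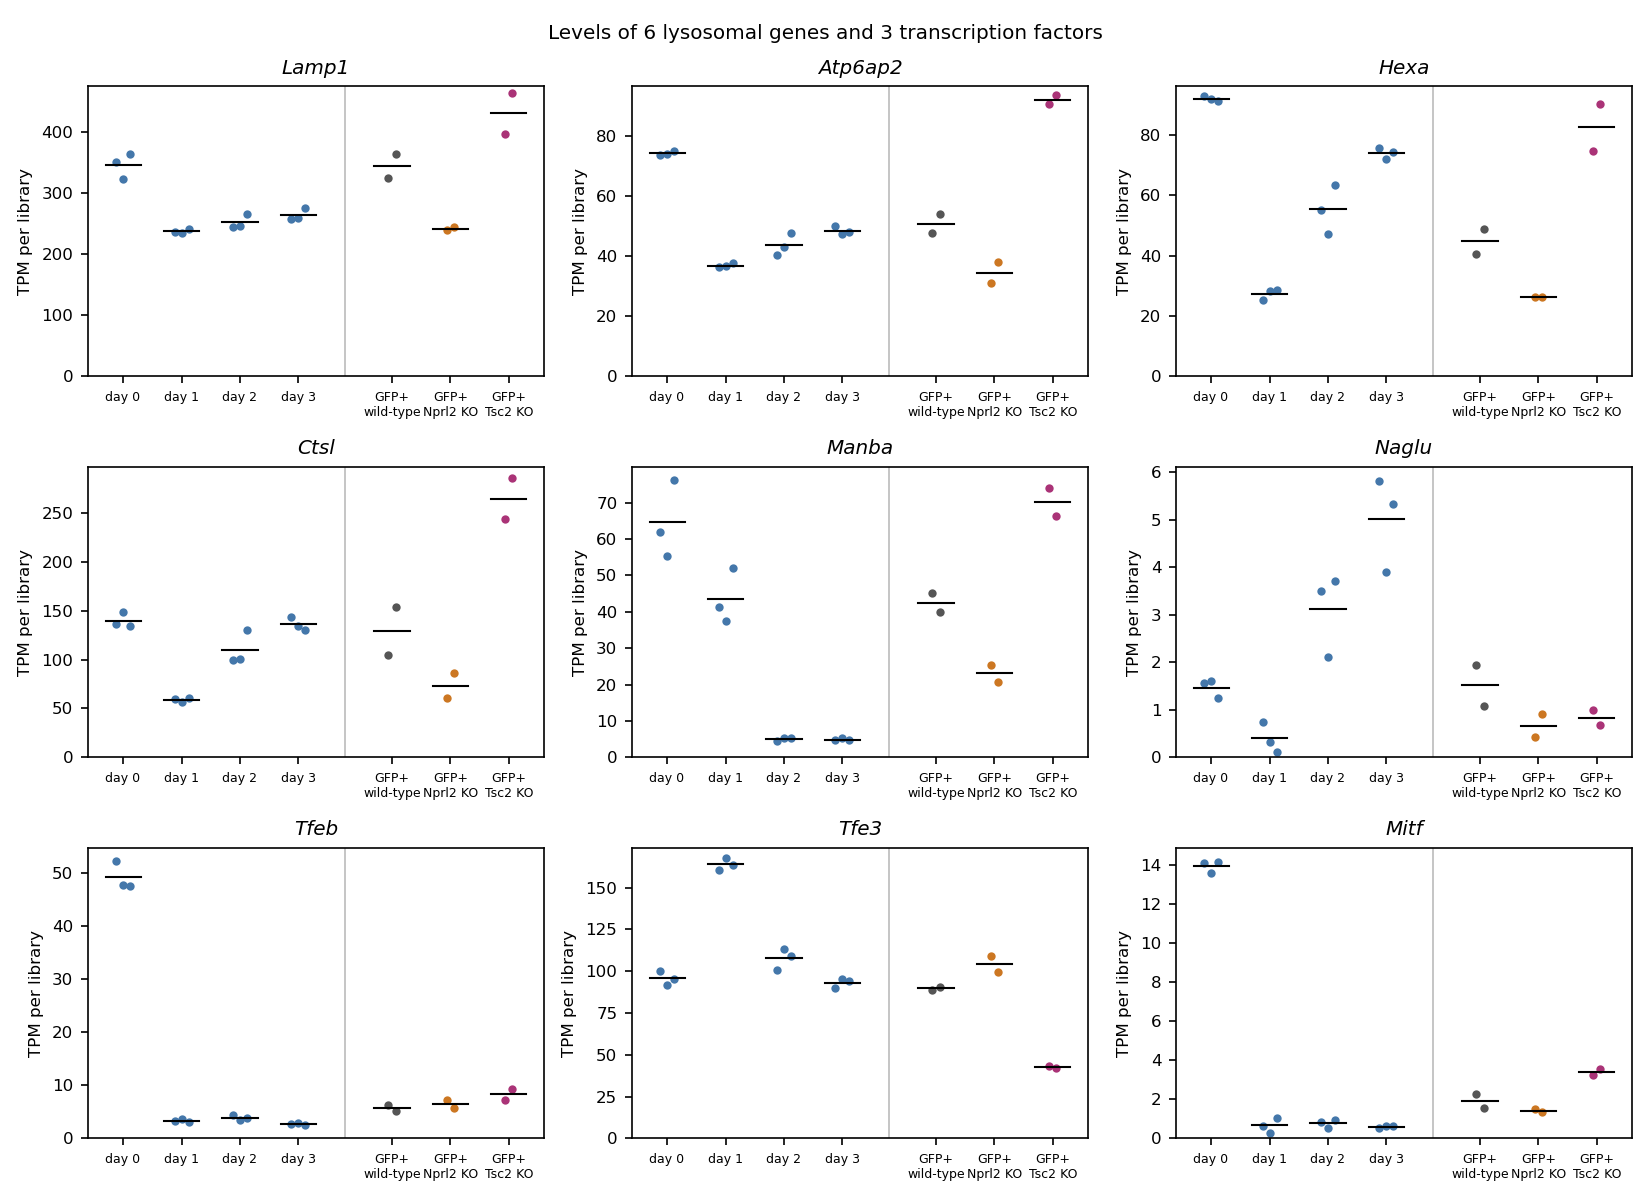
TPM per library of 6 lysosomal genes and of Tfeb, Tfe3 and Mitf, with points for libraries, lines for group means and a grey line between the time course and the GFP+ experiment, each panel on its own axis from 0. Tfeb and Mitf dropped between day 0 and day 1, Tfe3 was lowest in Tsc2 KO at 43.1 and 42.0 TPM, and Hexa and Manba rank Nprl2 KO, wild-type, Tsc2 KO in rising order.

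Genes whose promoters hold CACGTG and those whose do not had like medians in Tsc2 KO against wild-type, at a log2 fold change of 0.35 over 15 genes and 0.39 over 26. In Nprl2 KO the medians were -0.38 and -0.18, and between Tsc2 KO and Nprl2 KO 0.74 and 0.50. At day 1 they were -0.47 and -0.64. These medians are a description, and no difference between them was tested.

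Of 24 other lysosomal genes, 23 were tested in GFP+ cells. In Tsc2 KO 11 were higher and 0 lower (0 lower also unadjusted or with DESeq2 or limma), where 29.1% of all genes were called; DESeq2 called 6 higher and limma 12. In Nprl2 KO 0 were higher and 6 lower (1 higher unadjusted, 0 with DESeq2 or limma), where 6.43% of all genes were called. At day 1, 16 of 22 were lower and 2 higher, where 60.9% of all genes were called. Gm2a, the activator protein that presents GM2 ganglioside for breakdown, rose in Tsc2 KO by a log2 fold change of 1.11 ± 0.14. At day 1 both Hexa and Gm2a fell, by 1.68 and 1.80 on the log2 scale. A further list of 7 genes held Gnptab, Gnptg, Nagpa, M6pr and Igf2r of mannose 6-phosphate sorting. Sort1 and Sumf1, outside that sorting, were the others. Of these 7, 0 passed the edgeR test in Nprl2 KO (2 lower unadjusted, 0 with DESeq2 or limma). In Tsc2 KO 2 were higher and 1 (Gnptab) lower, while DESeq2 and limma called 0 lower. The receptors M6pr and Igf2r were the 2 higher ones (0.34 ± 0.07 and 0.43 ± 0.07). Sort1, a sorting receptor that does not need the tag, rose over the time course from 6.12, 6.86 and 5.25 TPM at day 0 to 63.3, 65.3 and 70.5 at day 3 (3.36 ± 0.10, edgeR adjusted p = 1.6e-14).

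Lamp2 has 3 listed transcripts that differ at their 3′ ends, and their shares of its TPM shifted over the time course. The longest, of 3615 bases, made up 71% to 76.5% at day 0, 59.5% to 75.3% at day 1, 78% to 83.5% at day 2 and 83.9% to 90.2% at day 3. The transcript of 1788 bases made up 22.3% to 28% at day 0 and 8.62% to 14.5% at day 3. In GFP+ cells that transcript made up 29.1% to 31.7% in wild-type, 31.9% to 33% in Nprl2 KO and 36.5% to 36.6% in Tsc2 KO. The day 0 and day 3 ranges did not overlap, nor did those of the 3 genotypes. Wild-type and Nprl2 KO lay close, at up to 31.7% and from 31.9%. No test was run on these shares, which kallisto estimates from reads that isoforms largely share. The median length that kallisto subtracted from transcripts to allow for fragment size was 227.9 bases in Nprl2 KO library 1. It was 169.6 to 183.9 bases in the other GFP+ libraries, and its part in the shares was not tested. Of the 51 genes, 41 have 1 listed transcript.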

How the data were processed

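RNA-seq reads were quantified by the authors with kallisto 0.42.1 (build mm10 per the labels), and they deposited, for each of 18 libraries, estimated counts and TPM per transcript, plus a table of TPM per gene. GFP+ libraries were stranded, paired-end and 75 bases long according to the study; how the time course libraries were prepared beyond standard Illumina protocols is not given in the sources used here. The authors' 2 tables of DESeq2 comparisons (mean counts, fold changes and p-values) were not used.

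Estimated counts of 33905 of the 34079 transcripts were summed per gene, with gene symbols from RefSeq (GRCm38.p6) and GENCODE, and rounded; 1.65% to 3.57% of counts had no gene. The summed TPM of all 51 genes differed from the authors' gene table by under 0.1%. Kallisto divides reads shared by near-identical transcripts, so genes with close copies are uncertain. The GFP+ libraries (13725 genes) and the time course (14382 genes) were fitted separately with edgeR 4.0.16 (R 4.3.3): filterByExpr, TMM, robust quasi-likelihood fit, Benjamini-Hochberg adjustment over all genes, threshold 0.05. The standard error of a log2 fold change is its size divided by the square root of F. Levels are TPM. The script was tested on simulated data. DESeq2 1.42.0, limma 3.58.1, other normalisations and filters, chromosome medians, a replicate block and leaving out each library were alternatives.

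The genes and lists were chosen with earlier results of these data known. Values were given per library for the 3 called genes with the largest change per direction, group and comparison, genes called in both KOs, the highest and lowest V-ATPase gene and hydrolase, 7 well-known genes (Lamp1, Lamp2, Ctsd, Ctsb, Ctsl, Mcoln1 and Npc1), Tfeb, Tfe3 and Mitf, and checks of the labels; other genes in the text were picked after their values were seen.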

Additional observations from a re-analysis of the deposited data

How the results depend on the processing

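The 7 counts of lysosomal genes called stayed within 1.5 times of the values above under DESeq2, upper-quartile normalisation, a minimum of 10 counts in every library, limma on log2(TPM + 1) and, for the KO comparisons, subtraction of chromosome medians. With no filter on low counts, Nprl2 KO against wild-type gave 21 genes in place of 9. GFP+ replicate numbers are not said to pair libraries, and same-numbered libraries had correlations of 0.192 to 0.358 in the GFP+ experiment and -0.22 to 0.255 in the time course; a replicate block raised the count in Nprl2 KO to 21, Ctsl and Mcoln1 among them, and moved no other count by over 1.5 times. Leaving out 1 library at a time gave 3 to 11 genes for Nprl2 KO against wild-type, 17 to 30 for Tsc2 KO against wild-type, 29 to 37 for Tsc2 KO against Nprl2 KO, 41 to 44 for day 1 against day 0, 26 to 35 for day 2 against day 1, 13 to 25 for day 3 against day 2 and 36 to 40 for day 3 against day 0; each of these fits has fewer libraries, and a genotype left with 1 library is assumed to vary like the others. For the 142 called changes of named genes, 2159 of 2262 alternative values kept their direction and call, 103 lost the call and none changed direction. Many of these alternatives left out a library of a day or genotype outside the comparison, which hardly tests the call. The ranges above hold such fits as well. The 142 were largely picked for large changes, so the kept share does not carry over to smaller ones. Calls were lost most often for Cd63 at day 3 against day 2 (10 alternatives), Tsc2 at day 3 against day 2 and Gusb at day 1 (8 each), Atp6v1g1 at day 2 (7), and Man2b1 and Psap in Nprl2 KO and Fuca1 between the KOs (6 each). Low genes such as Naglu, Sgsh, Arsb and Ctsh rest on few counts.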

Other observations

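V-ATPase isoforms outside the 16 genes were mostly low. Of 9, 4 were tested in GFP+ cells and 5 in the time course. Atp6v0a4, a large V0 subunit best known from kidney, fell from 2.00, 2.41 and 1.16 TPM at day 0 to 0.242, 0.333 and 0.373 at day 1 (log2 fold change -2.52 ± 0.42, edgeR adjusted p = 3.7e-05). Atp6v0e2 rose from 9.20, 9.38 and 8.32 TPM at day 0 to 27.1, 21.1 and 26.9 at day 3 (1.39 ± 0.12, edgeR adjusted p = 5.4e-09), and Atp6v1c2 rose at day 1 (2.80 ± 0.45) and fell at day 3 against day 2 (-2.05 ± 0.40). Tcirg1, the large V0 subunit known from osteoclasts, was at 8.74 and 8.74 TPM in wild-type, 12 and 11.9 without Nprl2 (0.49 ± 0.13, edgeR adjusted p = 0.0499) and 14.2 and 14.0 in Tsc2 KO (0.64 ± 0.13, edgeR adjusted p = 0.00334).

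The 6 listed transcripts of Psap took different shares in the 2 experiments. The one of 2583 bases made up 79.7% to 89.7% of Psap TPM in the time course libraries and at most 0.168% in the GFP+ libraries, where the one of 2667 bases made up 85% to 93.1%. The median length that kallisto subtracted from transcripts for fragment size was 179.0 bases in every time course library. In the GFP+ libraries it was 169.6 to 227.9 bases. Whether this bears on the shares of Psap was not tested, nor was any other cause.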
